A study of Mus musculus with 6 samples.

Results

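Genes of MHC class I antigen presentation were followed in RNA sequencing of cells from mouse skin. The 10 genes were chosen by name and matched to the gene name of each row of the count table, which has 54532 rows. They are the class I heavy chains H2-K1 and H2-D1, their light chain B2m, the peptide transporter subunits Tap1 and Tap2, tapasin (Tapbp), the immunoproteasome subunits Psmb8, Psmb9 and Psmb10, and the transactivator Nlrc5. Each matched 1 row, and all 10 passed the filter on low counts. The data are 6 Smart-seq2 libraries, a method that makes full-length cDNA from little RNA, from dorsal epidermis of C57BL/6 mice of both sexes at 4 weeks of age. The NCAM-enriched group (3 libraries) holds DAPI-negative cells pulled down on beads and then sorted for polysialylated NCAM, the surface protein used here to mark Merkel cells. The bulk skin group (3 libraries) holds DAPI-negative cells sorted without that selection, so it can include Merkel cells. The study describes them as epidermal, and the sample labels call them total skin. Each library was made from 500 sorted events, no animal received a treatment, and the sources do not say whether the libraries of a group came from separate animals.

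Nearly all nucleated cells carry MHC class I, a heavy chain bound to beta-2 microglobulin and a short peptide that is shown to CD8 T cells and natural killer cells. The proteasome cuts proteins to peptides, the TAP transporter moves them into the endoplasmic reticulum, and tapasin with its partner chaperones holds the empty class I molecule until a peptide fits. Immune cells, and other cells exposed to interferon-gamma, exchange the catalytic proteasome subunits for the immunoproteasome forms. NLRC5 is a transcriptional coactivator that raises class I, B2m, Tap1 and Psmb9 transcription through a conserved promoter module. Apart from that module, class I promoters can hold sites that NF-kappaB and interferon regulatory factors use.

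Library totals ran from 1343190 to 4481830 counts, so that a count equalled 0.216 to 0.773 normalised CPM (read counts scaled to library size with TMM factors). Of the Merkel cell markers 5 of 10 were called higher after NCAM enrichment and all 10 had a log2 fold change above 0, and 8 of 11 suprabasal keratinocyte markers were called higher too. Markers of other cells were lower in it: 6 of 10 pan-leukocyte, 7 of 10 T and NK cell, 8 of 10 Langerhans and myeloid, and all 4 tested red blood cell genes. None of 8 basal keratinocyte, 6 fibroblast and 4 tested endothelial genes was called, and none of 5 melanocyte genes passed the count filter. The NCAM-enriched libraries were unlike each other. Library 2 had the lowest total and a summed fibroblast marker level of 33003 CPM against 363 and 41.7 CPM in libraries 1 and 3. The fibroblast sum was 13226, 18198 and 10356 CPM in bulk skin libraries 1 to 3. Its mean in bulk skin, 13927 CPM, was near the 15188 CPM of basal keratinocyte markers there. Among the NCAM-enriched libraries, library 3 had the highest basal keratinocyte sum (32110 CPM against 10374 and 8803 CPM). It also had the lowest Merkel cell sum (482 CPM against 1569 and 1674 CPM). Where leaving out NCAM-enriched library 2 or 3 moved a member by more than its SE, or leaving out any library made a call, the value without it is given.

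The promoters of the class I chains and B2m are shown because they carry the module through which NLRC5 acts. RefSeq promoters (GRCm38.p6, 250 bases before to 50 after the annotated start) were found for 8 of the 10 genes, all but Tap2 and Nlrc5. H2-K1 is drawn from chr17:34000349-34000467 on the minus strand, H2-D1 from chr17:35262914-35263032 on the plus strand and B2m from chr2:122147538-122147648 on the plus strand. Capitals mark the kB letters GGGATTCCC in H2-K1 and H2-D1, the interferon response core GAAANNGAA in B2m, and in all 3 genes TGACG (the X2 box, a CRE-like element) followed by ATTGG (the Y box).
H2-K1: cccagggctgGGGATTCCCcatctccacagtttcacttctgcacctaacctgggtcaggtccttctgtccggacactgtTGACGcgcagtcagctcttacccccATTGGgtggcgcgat
H2-D1: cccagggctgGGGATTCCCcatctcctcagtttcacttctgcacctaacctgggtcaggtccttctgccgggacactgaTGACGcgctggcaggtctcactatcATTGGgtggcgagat
B2m: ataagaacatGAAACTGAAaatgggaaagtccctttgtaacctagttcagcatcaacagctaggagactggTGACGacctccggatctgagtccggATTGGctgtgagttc

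The 119 bases shown of H2-K1 and H2-D1 were identical at 107 positions. TGACG and ATTGG lay 25 bases apart, start to start, in H2-K1, H2-D1 and B2m, an arrangement seen on either strand in 0.0999% of the 27025 genes with a promoter. That spacing was noticed in these sequences before it was counted. The kB letters were in 2 of the 8 member promoters, H2-K1 and H2-D1, and in 0.414% of all genes. The exact letters of the interferon core were in B2m alone of the 8 (9.76% of all genes). Only exact matches were counted, so an interferon response element with other letters would be missed, also in H2-K1 and H2-D1. Without regard to spacing, ATTGG was in 6 and TGACG in 5 of the 8, against 11096 and 6228 of the 27025 genes. Both strands were searched for each motif, and the motifs do not overlap in the sequences shown. Tap1 and Psmb9 are transcribed away from each other from RefSeq starts 226 bases apart, so their windows share 275 bases. By the GENCODE positions given below the 2 genes overlap. A match is a stretch of letters and was not tested for binding.

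None of the 10 genes was called different between the groups by the edgeR quasi-likelihood test, at an adjusted p of at most 0.05 over 13157 genes. Among all genes tested 2.59% were called, 1.04% as higher after enrichment and 1.55% as lower. At an unadjusted p under 0.05 edgeR gave 1 member higher (Nlrc5) and 1 lower (Psmb10), where 8.73% and 10.2% of all genes were. DESeq2 called the same 2 genes, against 5.02% of genes higher and 7.05% lower, and limma-voom called Psmb10 alone, against 2.67% and 6.45%. The median log2 fold change of the 10 was -0.34, compared with -0.07 over all genes, and 6 of the 10 lay below 0 as did 52.3% of all genes. The libraries of the groups did not overlap for Nlrc5, which was higher (11.1% of all genes), or for Psmb8 and Psmb10, which were lower (19.3% of all genes). Each library is a pool of sorted cells, in which fewer cells of a type and less RNA per cell cannot be told apart.

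**Figure D1:**
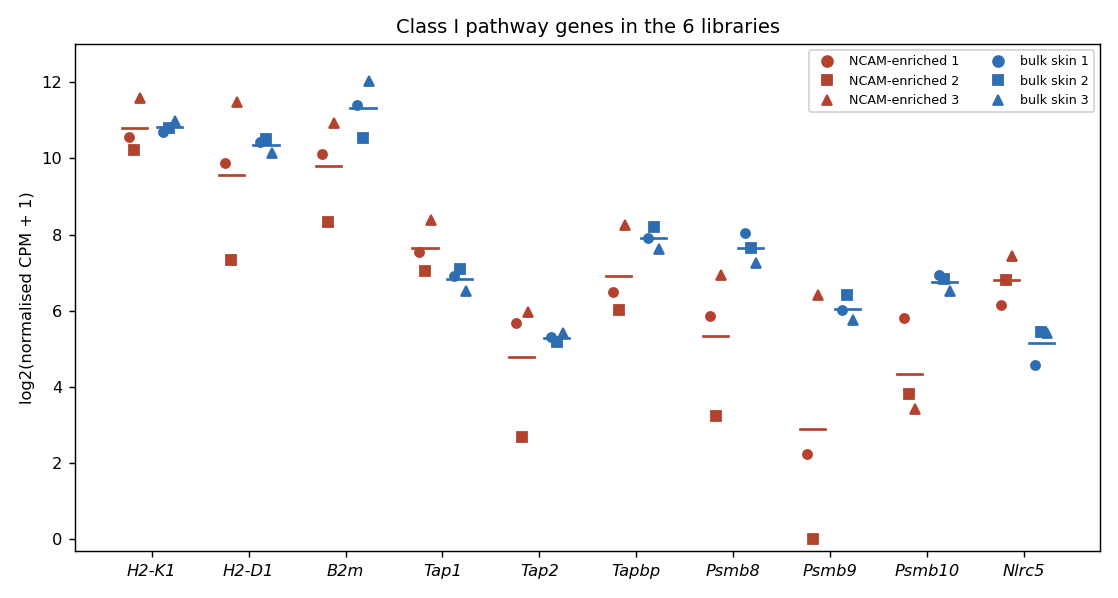
Level of each of the 10 genes, as log2(normalised CPM + 1), in the 3 NCAM-enriched (red) and 3 bulk skin libraries (blue), with a bar at the mean of each group's log values. The bulk skin libraries lie close together except for B2m, NCAM-enriched library 2 is the lowest of its group for 8 of the 10 genes, and Psmb9 is at 0 there.

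The class I heavy chains were among the most abundant transcripts of both groups and had nearly equal group means, with wide intervals on the difference. H2-K1 (chromosome 17, 33996017 to 34000347, minus strand, GRCm38) had 1517, 1198 and 3057 CPM in NCAM-enriched libraries 1 to 3 and 1647, 1762 and 2026 CPM in bulk skin. The bulk skin libraries therefore lie inside the range of the NCAM-enriched ones. Its log2 fold change was 0.09 ± 0.48 (SE), with a 95% interval of -0.995 to 1.17 and an edgeR adjusted p of 0.950. Per kilobase of exon H2-K1 stood at 655 ± 338 CPM after enrichment and 617 ± 66.0 CPM in bulk skin (mean ± SD, n = 3), above 99.7% and 99.4% of the genes tested. Without NCAM-enriched library 3 its log2 fold change was -0.48.

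H2-D1 (chromosome 17, 35262730 to 35267499, plus strand), the other classical chain of this strain, had 947, 159 and 2825 CPM in the NCAM-enriched libraries and 1379, 1453 and 1136 CPM in bulk skin. NCAM-enriched library 2 was far below and library 3 far above every bulk skin library. The group means were 1311 ± 1370 and 1322 ± 166 CPM (SD, n = 3), a log2 fold change of -0.01 with a 95% interval of -1.85 to 1.83. The value was 0.50 without NCAM-enriched library 2 and -1.30 without library 3. The level of H2-K1 per kilobase was 0.950 to 1.57 times that of H2-D1 in 5 libraries and 6.61 times in NCAM-enriched library 2. Of the 50-base stretches in their transcripts, the length of the reads, 9.63% of H2-K1 and 12.8% of H2-D1 also occur in another gene, most often H2-Q10 and H2-Q1, so part of their counts is uncertain.

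B2m (chromosome 2, 122147686 to 122153083, plus strand), the light chain that every class I molecule needs, had 1111, 320 and 1947 CPM in the NCAM-enriched libraries and 2692, 1472 and 4194 CPM in bulk skin. NCAM-enriched library 3 exceeded bulk skin library 2, so the groups overlap. With a log2 fold change of -1.31 ± 0.69 (SE; edgeR adjusted p = 0.353), its 95% interval ran from -2.87 to 0.26. Without NCAM-enriched library 3 the value was -2.01. Per kilobase, B2m was 0.792 to 1.46 times the summed heavy chains in the NCAM-enriched libraries and 1.47 to 4.32 times in bulk skin. No 50-base stretch of B2m occurs in another gene.

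Transport and loading genes were spread around 0. Tap1 (chromosome 17, 34187553 to 34197225, plus strand), which forms the peptide pump with Tap2, had 184, 131 and 332 CPM in the NCAM-enriched libraries and 120, 137 and 90.5 CPM in bulk skin. Only NCAM-enriched library 2 lay within the bulk skin range. Tap1 had a log2 fold change of 0.90 ± 0.43 (SE; 95% interval -0.08 to 1.88; edgeR adjusted p = 0.307), and of 0.38 without NCAM-enriched library 3. Tap2 (chromosome 17, 34203527 to 34216321, plus strand) had 49.9, 5.41 and 61.9 CPM against 38.5, 35.2 and 41.4 CPM, with libraries 1 and 3 above and library 2 below all of bulk skin. Its log2 fold change was 0.04, with a 95% interval of -1.76 to 1.83. Per kilobase, Tap1 was 1.51 to 2.68 times Tap2 in bulk skin and 2.54, 16.7 and 3.71 times in the NCAM-enriched libraries, the middle value resting on 7 counts of Tap2.

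Tapbp (chromosome 17, 33915899 to 33929292, plus strand), the tapasin that bridges class I to the transporter, had 88.7, 64.1 and 305 CPM in the NCAM-enriched libraries. In bulk skin it had 242, 295 and 197 CPM, so that NCAM-enriched libraries 1 and 2 lay below and library 3 above the bulk skin range. Tapbp had a log2 fold change of -0.67 ± 0.58 (SE; edgeR adjusted p = 0.599), and without NCAM-enriched library 3 it was -1.74 (adjusted p = 0.0406). Reads of overlapping genes cannot be told apart without strand, and 29.0% of the exonic bases of Tapbp and 18.5% of those of Tap2 lie in exons of another gene (Zbtb22 and Gm19412 for Tapbp).

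All 3 immunoproteasome genes had a log2 fold change below -1, and none was called by edgeR over all genes. B2m was below -1 too, as were some constitutive proteasome genes, among them Psmb2 (-1.65) and Psma2 (-1.19). Psmb10 (chromosome 8, 105935735 to 105938444, minus strand), the trypsin-like beta2i subunit, had 55.3, 13.1 and 9.65 CPM in the NCAM-enriched libraries and 121, 113 and 90.7 CPM in bulk skin. Every NCAM-enriched library was below every bulk skin library. Psmb10 had a log2 fold change of -2.06 ± 0.69 (SE; 95% interval -3.62 to -0.50), with an adjusted p of 0.143 by edgeR, 0.0460 by DESeq2 and 0.0329 by limma-voom. Over all 13 alternatives the adjusted p ran from 0.0173 to 0.349, and without NCAM-enriched library 1 it was 0.0340 with a log2 fold change of -3.28.

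Psmb8 (chromosome 17, 34197721 to 34201454, plus strand), the chymotrypsin-like beta5i subunit, had 57.4, 8.50 and 121 CPM in the NCAM-enriched libraries and 265, 200 and 151 CPM in bulk skin. The groups did not overlap, with NCAM-enriched library 3 nearest to bulk skin. Psmb8 had a log2 fold change of -1.71 ± 0.75 (SE; edgeR adjusted p = 0.265), and of -2.67 without NCAM-enriched library 3. With no filter beyond 1 count per gene the adjusted p was 0.0228, and over the alternatives it reached 0.526. Psmb9 (chromosome 17, 34181987 to 34187764, minus strand), the beta1i subunit, had 7, 0 and 298 counts in the NCAM-enriched libraries and 204, 391 and 193 counts in bulk skin. Library 3 thus held nearly all the NCAM-enriched counts, at 84.6 CPM, the same level as the highest bulk skin library (84.5 CPM). For Psmb9 the log2 fold change was -1.16 ± 1.32 (SE; edgeR adjusted p = 0.705) with all libraries and -5.07 (adjusted p = 0.0377) without NCAM-enriched library 3. With all libraries it was -3.42 by limma-voom (adjusted p = 0.132). Of the exonic bases of Psmb8 and Psmb9, 14.7% and 5.79% lie in exons of another gene (Gm20496 and Tap1). Of the 50-base stretches of Psmb8, 11.9% also occur in another gene, so part of these counts is uncertain.

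Each immunosubunit replaces a constitutive partner in the catalytic core, so the pairs were also compared within each library, as log2((CPM + 1)/(CPM + 1)). Psmb8 amounted to 76.1%, 9.02% and 209% of Psmb5 in the NCAM-enriched libraries and to 303%, 288.5% and 319% of it in bulk skin, in CPM with no correction for length. Psmb10 amounted to 66.7%, 46.0% and 20.4% of Psmb7 against 162.5%, 218% and 125%. For both pairs every NCAM-enriched library was below every bulk skin library. The mean log2 ratios were -0.89 ± 2.23 and 1.59 ± 0.07 for Psmb8 to Psmb5 and -1.28 ± 0.82 and 0.71 ± 0.40 for Psmb10 to Psmb7 (SD, n = 3). The differences of -2.47 and -1.98 each had an exact two-sided permutation p of 0.1, the smallest that 3 against 3 allows (0.15 adjusted over the 3 pairs). Psmb9 to Psmb6 differed by -2.46 with overlapping groups (exact permutation p = 0.3). Without NCAM-enriched library 2 the differences for Psmb8 and Psmb9 were -1.25 and -1.14, and without library 3 they were -3.44 and -4.02. The partners themselves had log2 fold changes of 0.16 (Psmb5), -0.84 (Psmb6) and -0.32 (Psmb7), and none was called. The median of all 14 constitutive proteasome genes was -0.69, below the values of Psmb5 and Psmb7. How often other pairs of genes lie apart in this way was not counted.

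**Figure D2:**
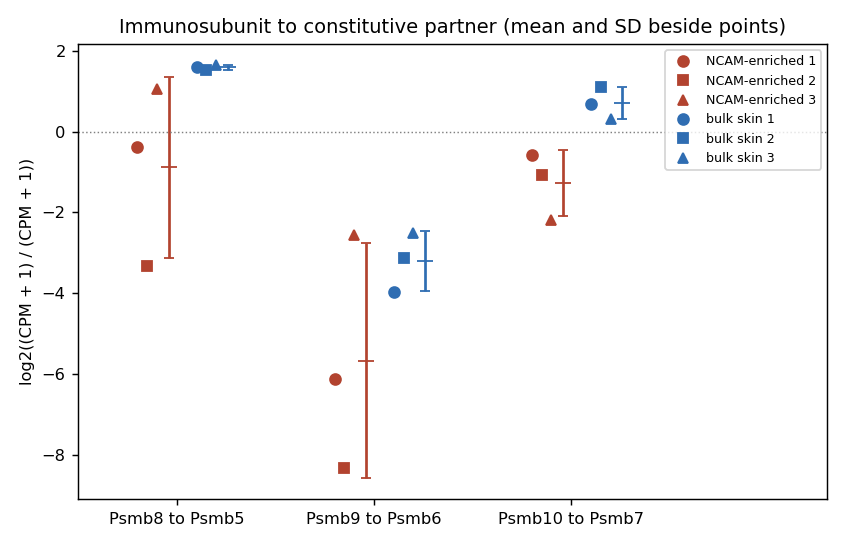
Log2 ratio of each immunoproteasome subunit to the constitutive subunit it replaces, with 1 CPM added to each gene, in the 3 NCAM-enriched (red) and 3 bulk skin libraries (blue); bars give the group mean and SD. For Psmb8 and Psmb10 the red points lie below all blue points, and for Psmb9 NCAM-enriched library 3 (-2.55) lies beside bulk skin library 3 (-2.52).

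Nlrc5 (chromosome 8, 94434356 to 94527272, plus strand), the class I transactivator, had the opposite order. It had 69.6, 112 and 171 CPM in the NCAM-enriched libraries and 22.98, 42.6 and 41.7 CPM in bulk skin, and the lowest NCAM-enriched library was above the highest bulk skin library. The log2 fold change was 1.72 ± 0.50 (SE; 95% interval 0.59 to 2.85), with an adjusted p of 0.0958 by edgeR, 0.0209 by DESeq2 and 0.0552 by limma-voom. It was above 0 under all 13 alternatives, from 1.27 to 1.98, with adjusted p-values from 0.0209 to 0.345. Its order among the NCAM-enriched libraries was not that of B2m or H2-D1, since library 2, which was lowest for both, was in the middle for Nlrc5. Per kilobase Nlrc5 was the least abundant member in bulk skin, at 4.21 ± 1.30 CPM.

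Other regulators of the pathway and the interferon receptors were not called in either direction (0 of 25 by edgeR). Their median log2 fold change was -0.50, and 19 lay below 0, as did 52.3% of all tested genes. The lowest log2 fold changes were those of Irf8, an interferon regulatory factor of myeloid cells, and Ciita, the class II counterpart of Nlrc5. Irf8 had 23, 0 and 1 counts in the NCAM-enriched libraries against 514, 550 and 583 in bulk skin (edgeR adjusted p = 0.0637), and Ciita had 16, 1 and 0 against 259, 467 and 205 (adjusted p = 0.0817). Jak1, a kinase of the interferon receptors and the most abundant gene of the list, had 357 ± 97.3 against 398 ± 30.8 CPM.

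Interferon-induced genes outside the class I pathway were not called by edgeR, although nearly all had values below bulk skin. Their summed level was 67.2 to 85.6 CPM there and 299 to 323 CPM in bulk skin. Of the 12 of 20 that passed the count filter none was called. Of these, 11 lay below 0, as did 52.3% of all tested genes. For 10 the groups did not overlap, with lower values after enrichment (19.3% of all tested genes). That filter can keep a gene through bulk skin alone. Ifi47, an interferon-inducible GTPase, had no count in the NCAM-enriched group and 78, 81 and 62 counts in bulk skin (edgeR adjusted p = 0.0502). Ifit2 likewise had no count against 28, 16 and 28 counts (adjusted p = 0.0841). Rnf213, the most abundant, had 21.0 ± 6.56 against 59.1 ± 15.4 CPM (adjusted p = 0.189).

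No gene of the remaining steps of the pathway was called. Of 11 loading chaperone and trimming genes none was called, with a median of -0.29. Calr, Canx and Pdia3, the chaperones that work with tapasin, had log2 fold changes of 0.08, 0.07 and 0.14. Tapbpl, a tapasin relative that edits peptides on class I, had 37.7, 38.6 and 51.1 CPM in the NCAM-enriched libraries and 10.9, 23.3 and 11.8 CPM in bulk skin, without overlap (log2 fold change 1.47, edgeR adjusted p = 0.272). Sec61b, a subunit of the endoplasmic reticulum channel, had the lowest value of this list (-1.49, adjusted p = 0.203).

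None of the 14 constitutive proteasome genes was called by edgeR. Their log2 fold changes ran from -1.65 to 0.745, with a median of -0.69, and 11 lay below 0, as did 52.3% of all tested genes. For 6 of the 14 the groups did not overlap, with lower values after enrichment (19.3% of all tested genes). Psmb2, a non-catalytic beta subunit, was lowest, at 216 ± 99.6 against 681 ± 192 CPM (adjusted p = 0.0947), and the groups did not overlap. Of 9 activator and assembly genes none was called (median -0.30). Psme2, a subunit of the PA28 activator that works with the immunoproteasome, had 39.7 ± 23.4 against 102 ± 15.3 CPM (log2 fold change -1.36, adjusted p = 0.240), and Psme1, its partner, had 135 ± 7.49 against 183 ± 43.9 CPM.

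Among non-classical and class I-like genes, 2 of the 14 tested were called lower by edgeR (1.55% of all tested genes) and none higher (1.04%). Their median log2 fold change was -0.30. The 2 called genes, H2-M5 and H2-M2, were high in bulk skin alone, and the count filter can keep a gene through that group. H2-M5 had 1 count over the NCAM-enriched libraries and 824 over those of bulk skin (adjusted p = 0.00767), a ratio of the scaled pooled counts of 480 with a 95% counting interval of 86.0 to 19000. H2-M2 had 2.66, 14.7 and 1.42 CPM against 225, 137 and 69.1 CPM (log2 fold change -4.62 ± 0.93 SE, adjusted p = 0.0403). H2-M3, which presents formylated peptides, had 5.33 ± 4.74 against 41.4 ± 16.5 CPM (adjusted p = 0.117). H2-T23, the Qa-1 molecule that engages NK cell receptors, had the reverse order, with 42.5, 39.4 and 107 CPM against 29.8, 27.7 and 28.8 CPM and no overlap (adjusted p = 0.330). H2-Q7, a Qa-2 gene, had 85.5 ± 90.1 against 90.9 ± 5.13 CPM.

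Genes that lie among the members in the MHC on chromosome 17 but have no role in presentation had a median log2 fold change of 0.68 (11 tested, 0 called, 8 above 0). Brd2, a chromatin reader encoded next to the class II genes, had 333 ± 27.3 against 215 ± 48.8 CPM, Ring1, a Polycomb subunit, 59.9 ± 33.8 against 19.4 ± 3.86 CPM, and Rgl2 102 ± 30.7 against 40.3 ± 13.5 CPM. For these 3 genes every NCAM-enriched library was above every bulk skin library, as for 11.1% of all tested genes.

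**Figure D3:**
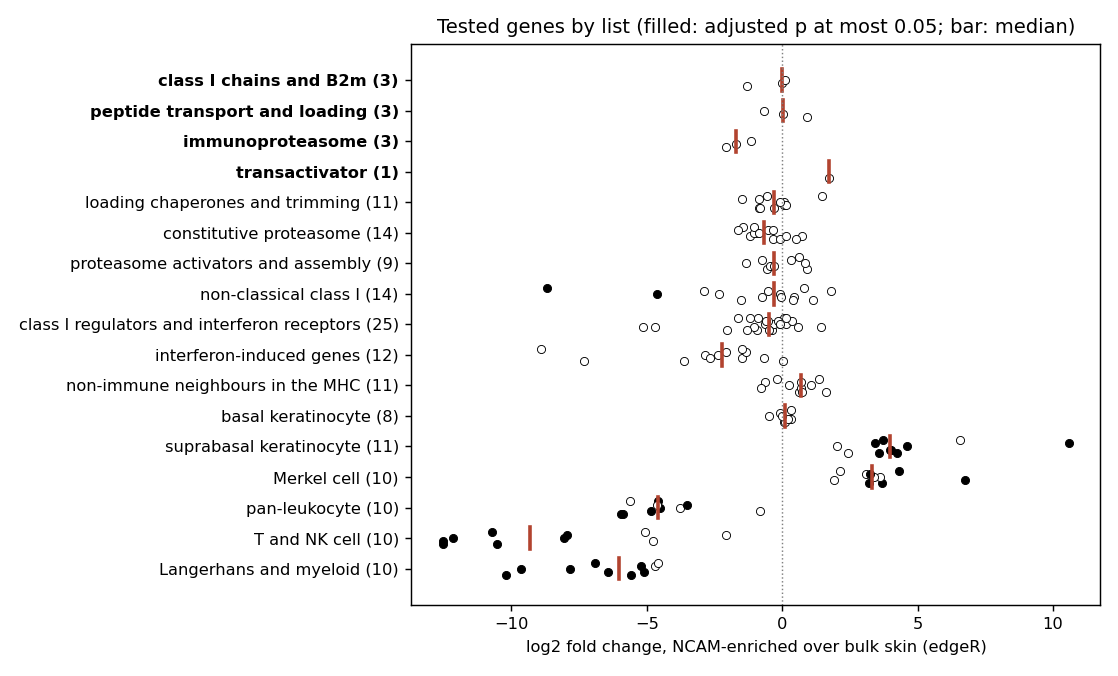
Log2 fold change (NCAM-enriched over bulk skin, edgeR) of every tested gene, by list, with the 10 class I pathway genes in the upper rows in bold, filled points for an adjusted p of at most 0.05, a bar at each median and the number tested in parentheses. The class I pathway genes lie between -2.06 and 1.72 with no filled point, while the medians of the leukocyte lists lie at -4.60 or lower.

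Class I is expressed far beyond immune cells, and the levels of the members were therefore set beside those of leukocyte markers in the same libraries. Ptprc (CD45), carried by all leukocytes, had 68, 1 and 111 counts in the NCAM-enriched libraries and 1734, 2487 and 1919 in bulk skin. The T cell receptor gene Cd3d had no count in any NCAM-enriched library, and Cd207, the Langerhans cell lectin, had 0, 1 and 0. The summed pan-leukocyte level was 235, 190 and 345 CPM after enrichment, against 4385, 3585 and 4164 CPM in bulk skin, and the group mean was 6.35% of that in bulk skin. The means of T and NK cell and of Langerhans and myeloid markers were 2.40% and 1.62%. By contrast, H2-K1, H2-D1, Tap1, Tap2 and Nlrc5 stood at 99.1% to 329% of bulk skin, Tapbp at 62.5%, B2m at 40.4%, and the immunoproteasome genes at 44.0% (Psmb9), 30.4% (Psmb8) and 23.99% (Psmb10). The leukocyte markers were not all near 0 in NCAM-enriched library 2, where H2-K1 had 1551 counts and B2m 414. Ptprc had 1 count there, but Ptpn6, also on the pan-leukocyte list, had 219. Thy1 and Cd7 of the T and NK cell list had 215 and 89. The other genes of that list had 0 to 2 counts each there, so its summed level of 237 CPM rested on Thy1 and Cd7. That sum was the highest of the group (5.85 and 70.9 CPM in libraries 1 and 3). NCAM-enriched library 2 also had the highest fibroblast marker sum (33003 CPM). Which cells gave its Thy1, Cd7 and Ptpn6 counts was not tested.

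Divided by the pan-leukocyte sum of its own library, each of 7 members was higher in every NCAM-enriched library than in any bulk skin library, and the 3 immunoproteasome genes overlapped. That share is near the 67.6% of all tested genes which did the same. H2-K1 ran from 6.31 to 8.85 CPM per CPM of pan-leukocyte markers after enrichment and from 0.376 to 0.492 in bulk skin. Psmb8 ran from 0.0447 to 0.351 and from 0.0364 to 0.0603. Ptpn6 made up 28.9%, 89.0% and 35.9% of the pan-leukocyte sum in the NCAM-enriched libraries and 4.29% to 6.29% in bulk skin. Its log2 fold change of -0.83 was the highest of the pan-leukocyte list, whose median was -4.60. With the other 9 markers alone, a choice made after seeing the data, 9 members were higher without overlap, against 72.1% of all tested genes. Psmb8 then ran from 0.343 to 0.547 and from 0.0380 to 0.0638, Psmb10 from 0.0436 to 0.630 and from 0.0228 to 0.0338, and Psmb9 alone overlapped. Basal keratinocyte markers were on average as abundant in both groups (17096 ± 13026 against 15188 ± 2031 CPM). Suprabasal keratinocyte markers were not, with 23673 ± 12084 CPM after enrichment against 1696 ± 107 CPM in bulk skin. NCAM-enriched library 3, which had the highest basal sum, was also the highest of that group for 9 of the 10 members. The part of leukocytes, of keratinocytes, of fibroblasts or of library 3 in the levels of the members was not tested.

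**Figure D4:**
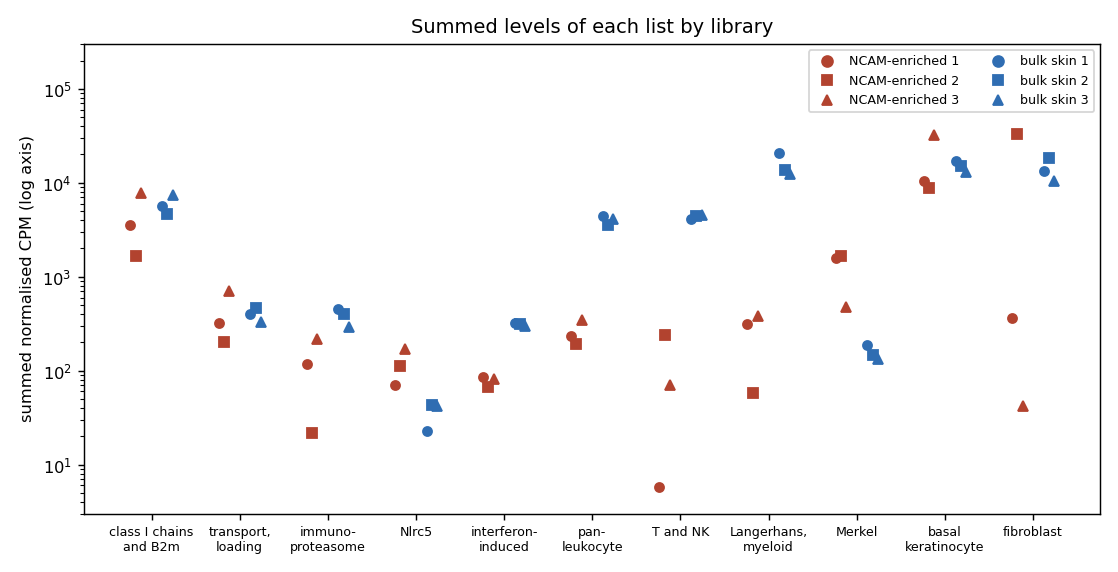
Summed normalised CPM of the member groups and of marker lists in each library, on a log axis, for the 3 NCAM-enriched (red) and 3 bulk skin libraries (blue). Class I chains with B2m overlap between groups (1677 to 7830 against 4687 to 7355 CPM), whereas the leukocyte sums lie apart, with 345 CPM the highest pan-leukocyte value of the NCAM-enriched group and 3585 CPM the lowest of bulk skin.

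Across the 6 libraries, log2(CPM + 1) of H2-D1 correlated with that of Tap2 (Pearson's r = 0.945), Psmb9 (0.894) and Psmb8 (0.876), Tapbp with Psmb9 (0.984), and Psmb10 with Nlrc5 at -0.949. These are descriptions over 6 libraries that share a group structure and differ in depth. The genes outside the members whose pattern was most like that of B2m, among 8539 with a mean of at least 20 CPM, were Sypl, Ndufb1-ps, Nudt5, Tmpo and Dph3 (r from 0.988 to 0.994 over the 6 libraries). Of these 8539 genes 96 had an r above 0.95.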

How the data were processed

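Raw read counts per gene were deposited by the authors, unnormalised. In their pipeline adapters and polyA were clipped with bbduk, abundant sequences removed with bbmap, and 50-base single-end reads aligned to GRCm38 with STAR and assigned to genes by featureCounts. Annotation release and strandedness: not given in the sources used here. Positions, exon lengths, overlaps and shared 50-base stretches came from GENCODE M21 (54495 of 54532 gene IDs found) and promoters from RefSeq (GRCm38.p6).

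Libraries were grouped by label. The main test was the quasi-likelihood F-test of edgeR 4.0.16 in R 4.3.3, after filterByExpr and TMM, with Benjamini-Hochberg adjustment over 13157 genes and a threshold of 0.05. The p-values measure the spread between these libraries, which may be technical. Totals ran from 1343190 to 4481830 counts. Reads are PCR copies, so counting intervals cover counting error only. SE was taken as |log2 fold change| over the root of F, and 95% intervals use the degrees of freedom of the test. For ratios within libraries a two-sided exact permutation test was used. Alternatives were DESeq2 1.42.0 (the tool of the study), limma-voom (limma 3.58.1), RLE and upper-quartile factors, other count filters, the replicate number as a block, and leaving out each library. The test was checked on simulated data. The members and lists were chosen with earlier results of these data known.

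All 10 members are named. Not all genes that the rule allows are named. For every other list it allows the genes with the 2 smallest p-values and the most abundant uncalled gene. Calr, Canx, Pdia3, Psme1, H2-M3, H2-T23, Ptprc, Ptpn6, Thy1 and Cd3d were added after their values had been seen. Psmb5, Psmb6 and Psmb7 are the fixed partners of the immunosubunits.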

Additional observations from a re-analysis of the deposited data

How the results depend on the processing

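Over all genes, edgeR called 137 higher and 204 lower after NCAM enrichment. With DESeq2 661 were higher and 928 lower. These counts were 351 and 849 with limma-voom, and 769 and 741 with every gene of at least 1 count. Leaving out a single library gave 0 to 1099 higher and 13 to 733 lower. The 0 arose on removal of bulk skin library 1 or of library 2, with 2115 and 2237 genes still at an unadjusted p below 0.05. The cause was not tested. Of the members, where edgeR called 0 in either direction, DESeq2 called 1 higher and 1 lower, limma-voom 1 lower, edgeR on every gene with at least 1 count 2 lower, and the fits without a single library 0 higher and 0 to 2 lower (1 without NCAM-enriched library 1, 2 without library 3). Libraries of equal replicate number showed no sign of pairing. Their deviations from the group means correlated at 0.0231, 0.000232 and -0.00776. Of the 3 NCAM-enriched libraries 1 correlated best with the bulk skin library of its own number. Because the NCAM-enriched libraries differed widely, these values cannot show whether equal numbers came from the same animals. With the replicate number as a block 50 genes were higher and 92 lower, and 0 members were called.

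B2m, Tapbp, Psmb8, Psmb9 and Psmb10 stayed below 0 and Tap1 and Nlrc5 above 0 under all 13 alternatives, and the 3 immunosubunit ratios kept their direction under all 8 run on them, running from -3.44 to -1.25 (Psmb8 to Psmb5), -4.02 to -1.14 (Psmb9 to Psmb6) and -2.33 to -1.53 (Psmb10 to Psmb7) without a single library. With a pseudocount of 0.1 CPM Psmb9 to Psmb6 was -3.66. The sign of H2-K1, H2-D1 and Tap2, whose log2 fold changes were all within 0.1 of 0, did not hold. H2-K1 was -0.0106 with limma-voom, -0.0045 with upper-quartile factors and -0.0282 with the block, and ran from -0.48 to 0.33 without a single library. H2-D1 was -0.73 with limma-voom and -0.75 with the block, and ran from -1.30 to 0.50 without a single library. Tap2 was -0.0377 with limma-voom, -0.0437 with upper-quartile factors, -0.0161 with every gene of at least 1 count and -0.44 with the block, and ran from -0.50 to 0.53 without a single library. Psmb9 was -3.42 with limma-voom and -3.44 with the block, against -1.16. The median log2 fold change over all genes moved from -0.07 to -0.37 with limma-voom and to -0.36 with the block. In NCAM-enriched library 2 Psmb9 and Tap2 had 0 and 7 counts, at 0.773 CPM per count.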
